A study of Mus musculus with 26 samples.

Results

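The 8 genes described here encode the liver's gluconeogenesis machinery and its supply of amino acid carbon: Pcx, Pck1, Fbp1, G6pc and Slc37a4, the aminotransferases Tat and Gpt, and the coactivator Ppargc1a. They were chosen by name, and all 8 were found among the 35976 gene symbols of the count table. Bulk RNA was sequenced from 20 mouse liver tumours and 6 control livers, to compare tumours whose drivers were switched on in different zones of the liver lobule. Cyp1a2_CA tumours (10 libraries, 9 animals) carried Cyp1a2-CreERT2, a tamoxifen-inducible Cre made in pericentral hepatocytes, with Ctnnb1(ex3)fl/+, which yields a stabilised beta-catenin, and Arid2fl/fl, which removes a chromatin remodelling subunit. Gls2_CA tumours (9 libraries, 5 animals) carried the same floxed alleles with Gls2-CreERT2, made in periportal hepatocytes. Cyp1a2_C was 1 tumour with Cyp1a2-CreERT2 and Ctnnb1(ex3)fl/+ and no floxed Arid2. Tumour mice were of mixed C57BL/6J and Swiss Webster background, received tamoxifen at postnatal day 28 and were followed for 6 to 12 months. The 6 WT livers came from C57BL/6J mice given AAV-Cre and kept on chow for up to 12 months. Strain and the way Cre was delivered therefore differ between tumours and WT together with the tumour itself, and their parts in any difference cannot be told apart. The labels used here do not give feeding state or time of day, which this pathway follows.

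Gluconeogenesis makes glucose from lactate, glycerol and amino acids when food is absent. In mitochondria pyruvate carboxylase turns pyruvate into oxaloacetate, and cytosolic phosphoenolpyruvate carboxykinase carries that carbon into the reversed glycolytic steps. Fructose-1,6-bisphosphatase and glucose-6-phosphatase then bypass the irreversible steps of glycolysis. In the liver the pathway is strongest in periportal hepatocytes, and glucagon through cAMP, glucocorticoids and insulin control it largely by transcription of Pck1 and G6pc.

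Promoter sequences are shown for Pck1 and G6pc, the genes on which hormonal control is centred, and for Ppargc1a, whose product drives both. They run from 250 bases before to 50 after the RefSeq start, on the gene's own strand, and are credited to RefSeq with build GRCm38.p6. The Pck1 window is chr2:173152823-173153122 on the plus strand, the G6pc window is chr11:101367466-101367765 on the plus strand and the Ppargc1a window is chr5:51567676-51567975 on the minus strand. Capitals mark TGACG, the core of the cAMP response element, shown as CGTCA where it lies on the other strand, or the TATA box TATAAA.
Pck1: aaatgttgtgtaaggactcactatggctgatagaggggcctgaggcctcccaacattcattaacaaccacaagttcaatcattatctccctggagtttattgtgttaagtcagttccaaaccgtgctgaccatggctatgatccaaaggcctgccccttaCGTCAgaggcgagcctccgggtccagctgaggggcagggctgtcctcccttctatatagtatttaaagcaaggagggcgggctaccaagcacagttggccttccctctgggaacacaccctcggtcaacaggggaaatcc
G6pc: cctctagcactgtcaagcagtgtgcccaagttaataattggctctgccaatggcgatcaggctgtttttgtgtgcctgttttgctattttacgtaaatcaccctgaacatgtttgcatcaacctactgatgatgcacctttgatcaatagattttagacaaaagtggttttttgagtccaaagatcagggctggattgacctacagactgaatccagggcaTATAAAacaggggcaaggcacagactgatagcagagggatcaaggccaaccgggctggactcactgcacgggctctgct
Ppargc1a: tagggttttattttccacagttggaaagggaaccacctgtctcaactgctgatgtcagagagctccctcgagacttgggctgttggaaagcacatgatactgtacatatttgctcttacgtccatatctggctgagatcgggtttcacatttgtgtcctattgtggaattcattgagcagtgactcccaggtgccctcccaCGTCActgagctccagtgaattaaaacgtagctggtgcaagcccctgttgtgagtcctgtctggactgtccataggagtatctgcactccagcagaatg
This core lay at -90 from the start in Pck1 and at -49 in Ppargc1a, both in reverse orientation. Of the 3 windows of Slc37a4, not printed, 1 held it at -61 and another, which overlaps the first and shares that copy, at -214 and -82. Among all genes, TGACG in either orientation was present in 20.8% of the 32817 promoters of the table. TATAAA lay at -29 in G6pc and at -32 in a window of Slc37a4, and was present in 13.6% of promoters. AGGTCA, bound by many nuclear receptors, was present in 16.3% of promoters. It lay on the opposite strand at -54 in G6pc and at 40 in a window of Pcx, and on the gene's own strand at -127 in a window of Slc37a4. The complete cAMP response element TGACGTCA, of which TGACG is a part, was found in 1.79% of promoters and in none of the windows of the 7 matched members. Gpt was not matched. These matches are letters in a window and were not tested for any relation with expression.

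Tumour and WT columns of the table differed in a way that bears on every comparison between them. Total counts were 37051941 to 49254470 in Cyp1a2_CA libraries, 36992043 to 42865787 in Gls2_CA, 41038144 in Cyp1a2_C and 13486530 to 16975288 in WT. In all 20 tumour libraries the counts of Cebpa were whole multiples of 5, those of Cebpb whole multiples of 3 and those of Agxt and Mdh1 whole multiples of 2. RefSeq lists 5, 3, 2 and 2 transcripts for these genes in that order, and in the 6 WT libraries the largest common divisors were 1, 2, 1 and 1. These 4 genes are examples chosen after the divisors were seen: 40 of 10250 genes had a common divisor over the 20 tumour libraries, 4 of them above 2, and 544 of 10006 did over the 6 WT libraries, 30 of them above 2. The tumour and WT counts cannot be compared directly. A divisor shared by chance is far less likely over 20 libraries than over 6, and no chance rate was worked out. Gk had a divisor of 4 in tumours with 8 RefSeq transcripts, and all 8 gluconeogenesis genes had a divisor of 1 in both sets of columns, so their own counts do not show such multiples. Across genes, the log2 fold change was higher with the gene's number of RefSeq transcripts, with Spearman rho 0.742 over 15622 genes in Cyp1a2_CA against WT and 0.766 over 13984 genes in Gls2_CA against WT, compared with -0.032 over 15888 genes in Cyp1a2_CA against Gls2_CA. Genes with 1 transcript had a median log2 fold change of -1.33 in Cyp1a2_CA against WT and -1.40 in Gls2_CA against WT, and genes with 13 transcripts had 2.24 and 2.12. How each set of columns was counted is not given in the sources used here. Fold changes of the 8 genes against WT are therefore given as deposited and again with an offset that sets the median of all genes with the same number of transcripts to the same value. The offset was added after the data had been seen.

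**Figure D1:**
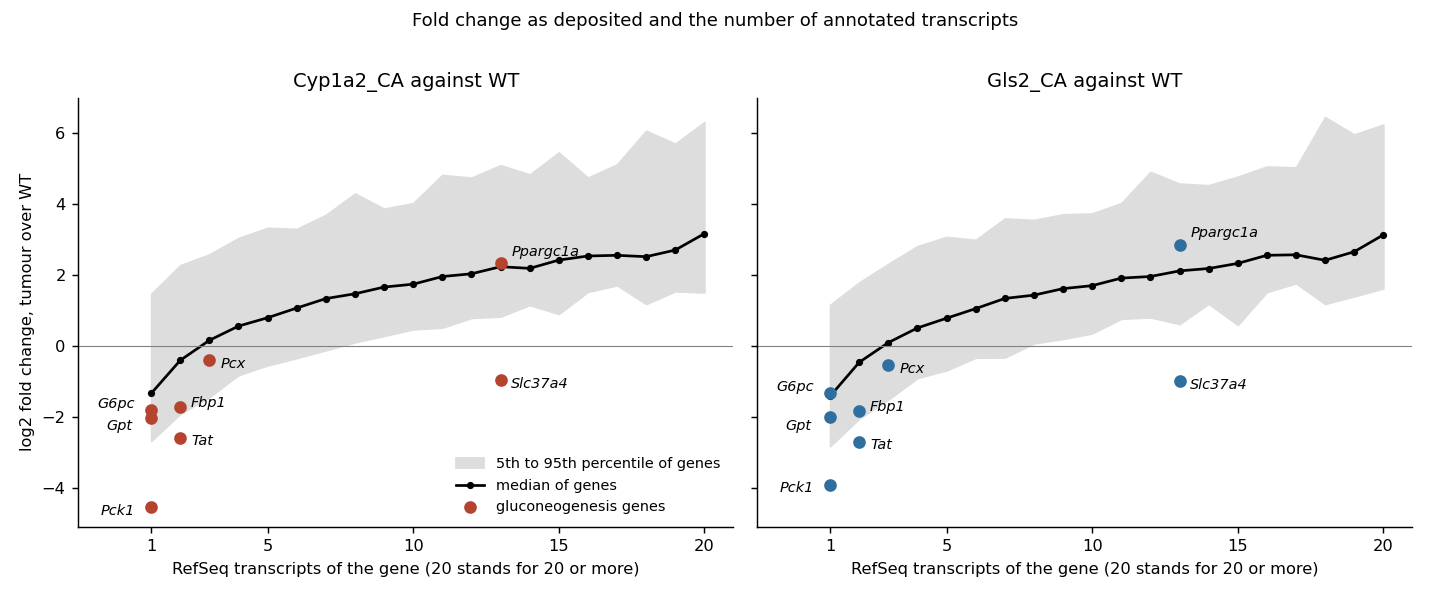
Log2 fold change of tumour over WT (vertical axis, counts as deposited) against the number of RefSeq transcripts of the gene (horizontal axis, 20 pools 20 and more), for Cyp1a2_CA (left) and Gls2_CA (right); the line is the median of all genes with that number, grey is their 5th to 95th percentile and coloured points are the 8 members. Pck1, Tat and Slc37a4 lie below the grey band in both panels, and the other 5 lie within it.

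Targeted genes and cell markers were read on the same TMM-scaled CPM (each gene's share of its library's counts). Arid2 was at 25.3 to 37.8 CPM in Cyp1a2_CA and 23.7 to 47.6 CPM in Gls2_CA, where it is floxed, at 43.9 CPM in Cyp1a2_C and at 60.8 to 73.1 CPM in WT. Ctnnb1, whose floxed exon is removed while the rest of the transcript remains, was at 81.3 to 221 CPM in Cyp1a2_CA, 74.0 to 328 CPM in Gls2_CA and 130 CPM in Cyp1a2_C, against 146 to 175 CPM in WT, and its level over the whole gene does not check the deletion. The summed level of 11 hepatocyte identity genes, none at 0 in any group, ranged from 17223 to 103816 CPM in Cyp1a2_CA and from 7401 to 38085 CPM in Gls2_CA, against 91952 to 115287 CPM in WT. These sums are on counts as deposited, without the offset. The list's median log2 fold change was -0.97 as deposited and -0.62 with the offset in Cyp1a2_CA, and -0.88 and -1.21 in Gls2_CA. In these sums fewer hepatocytes, less RNA per hepatocyte and the difference between tumour and WT columns cannot be told apart. The tumours of CAB44, CAB225, GAB235 and the Cyp1a2_C tumour stood apart by titin (Ttn) at 8522 to 29580 CPM per library, and without them the Pck1 change from WT was -4.61 in Cyp1a2_CA and -3.75 in Gls2_CA (edgeR adjusted p = 6.94e-06 and 3.16e-05). No call of the other genes changed without them, except Pcx in Gls2_CA, which is given with its values. Summed adipocyte markers, from a tissue that also makes Pck1, did not exceed 3.64 CPM in any group, and summed kidney tubule markers did not exceed 4.90 CPM in any tumour, against 7.0 to 10.5 CPM in WT.

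Against WT, Cyp1a2_CA tumours had 6 of the 8 genes lower and 1 higher with counts as deposited, where 70.9% of 16841 tested genes were called, 32.7% lower and 38.3% higher (edgeR quasi-likelihood test with Benjamini-Hochberg adjustment, adjusted p under 0.05). With the transcript-number offset 4 were lower and none higher, where 39.3% of 15622 genes were called, 16.9% lower and 22.4% higher. Gls2_CA tumours had 5 lower and 1 higher as deposited, where 73.2% of 14976 genes were called, 34.0% lower and 39.2% higher. With the offset 4 were lower and 1 higher, where 40.3% of 13984 genes were called, 17.4% lower and 22.9% higher. The median log2 fold change of the 8 genes was -1.75 in Cyp1a2_CA and -1.57 in Gls2_CA as deposited, beside 0.17 and 0.14 for all genes, and -0.87 and -0.89 with the offset, beside 0.14 and 0.11 for all genes. Pck1, Fbp1, Tat and Slc37a4 were the 4 genes lower in both fits and both genotypes. Both comparisons used the same 6 WT animals, so they are not independent. Scaling on the hepatocyte identity genes moved the median of all genes to 1.64 in Cyp1a2_CA and 2.28 in Gls2_CA. With it 11040 genes (65.6%) were higher and 714 (4.24%) lower in Cyp1a2_CA, beside 6442 and 5499 with TMM, and 11245 (75.1%) were higher and 288 (1.92%) lower in Gls2_CA, beside 5870 and 5095 with TMM. On that scale Pck1 was the 1 member still lower in each genotype. The scale was applied to counts as deposited, without the offset, so the difference between tumour and WT columns remains in it. Its reference genes have 1 to 5 RefSeq transcripts.

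**Figure D2:**
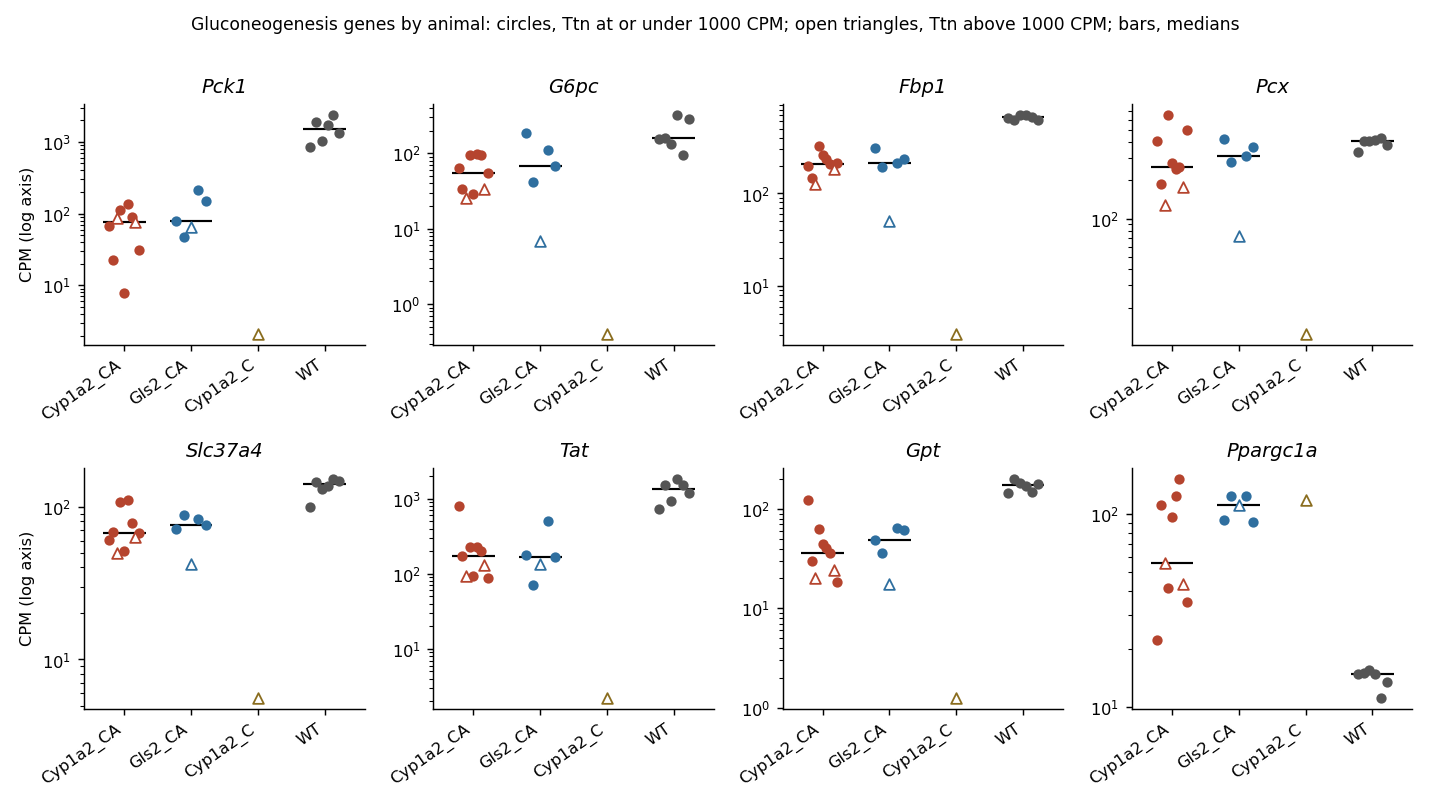
Level of each gene in CPM (log axis) for every animal of Cyp1a2_CA, Gls2_CA, Cyp1a2_C and WT; bars are medians and open triangles are tumours with Ttn above 1000 CPM. Pck1 was 7.79 to 136 CPM in Cyp1a2_CA and 46.9 to 212 CPM in Gls2_CA, below all WT livers at 851 to 2372 CPM, while Ppargc1a was above WT in all tumours on this scale, which carries the difference between tumour and WT columns.

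Pck1 (chr2:173153048-173159273, 1 RefSeq transcript), the cytosolic phosphoenolpyruvate carboxykinase that commits oxaloacetate to glucose, was the member with the largest fall as deposited. It was at 7.79 CPM in the lowest, 77.5 in the median and 136 in the highest of 9 Cyp1a2_CA animals. The 5 Gls2_CA animals had 77.7, 46.9, 64.6, 212 and 148 CPM, and the 6 WT livers had 851 at the lowest, 1522 at the median and 2372 at the highest. Every tumour lay below every WT liver, which was true of 20.9% of tested genes in Cyp1a2_CA and 26.2% in Gls2_CA. The log2 fold change was -4.53 ± 0.50 (SE) in Cyp1a2_CA, 23.2-fold lower (edgeR adjusted p = 7.24e-07), and -3.07 ± 0.47 with the offset, 8.39-fold lower (edgeR adjusted p = 0.000128). In Gls2_CA it was -3.89 ± 0.46, 14.8-fold lower (edgeR adjusted p = 1.18e-05), and -2.37 ± 0.43 with the offset, 5.18-fold lower (edgeR adjusted p = 0.00115). Restricting the fit to genes with 1 transcript gave -3.07 in Cyp1a2_CA (edgeR adjusted p = 0.000148), where 38.3% of 4270 genes were called, and -2.43 in Gls2_CA (edgeR adjusted p = 0.000885), where 36.9% of 4277 were. Of 4582 genes with 1 transcript, 0.589% had a lower fold change than Pck1 in Cyp1a2_CA, and 1.73% of 3935 did in Gls2_CA. Pck1 also fell on the hepatocyte scale, with values of -3.03 in Cyp1a2_CA (edgeR adjusted p = 8.42e-05) and -1.95 in Gls2_CA (edgeR adjusted p = 0.00174).

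Fbp1 (chr13:62864753-62888282, 2 transcripts), the fructose-1,6-bisphosphatase, was at 127, 210 and 323 CPM in the lowest, median and highest Cyp1a2_CA animal. Gls2_CA animals had 307, 192, 50.6, 214 and 235.1 CPM, and WT livers lay between 617 and 705 CPM with a median of 661. Every tumour lay below every WT liver, which was true of 20.9% of tested genes in Cyp1a2_CA and 26.2% in Gls2_CA. WT livers varied little, with a coefficient of variation of 5.70%. Fbp1 fell by 1.72 ± 0.17 on the log2 scale in Cyp1a2_CA (edgeR adjusted p = 1.66e-07) and by 1.82 ± 0.34 in Gls2_CA (edgeR adjusted p = 0.000417). With the offset the changes were -1.19 ± 0.16 (edgeR adjusted p = 4.6e-05) and -1.26 ± 0.33 (edgeR adjusted p = 0.0107), 2.28-fold and 2.39-fold lower. On the hepatocyte scale the values were -0.32 in Cyp1a2_CA and -0.12 in Gls2_CA and did not pass the test (edgeR adjusted p = 0.225 and 0.607).

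G6pc (chr11:101367561-101377903, 1 transcript), the catalytic subunit of glucose-6-phosphatase, releases free glucose. Its levels were 25.6, 54.4 and 99.3 CPM in the lowest, median and highest Cyp1a2_CA animal, and 187, 41.4, 6.79, 110 and 67.8 CPM in Gls2_CA. WT livers ranged from 96.2 to 324 CPM with a median of 159. In Cyp1a2_CA 8 of 9 animals were below the lowest WT liver, and in Gls2_CA 3 of 5 animals were. As deposited, G6pc fell by 1.79 ± 0.36 on the log2 scale in Cyp1a2_CA (edgeR adjusted p = 0.000341), and its -1.32 ± 0.62 in Gls2_CA did not pass the test (edgeR adjusted p = 0.0742). With the offset the values were -0.33 ± 0.36 in Cyp1a2_CA (edgeR adjusted p = 0.492) and 0.20 ± 0.61 in Gls2_CA (edgeR adjusted p = 0.817), so neither passed, and the hepatocyte scale gave -0.42 and 0.23 (edgeR adjusted p = 0.296 and 0.654). Of genes with 1 transcript, 23.5% had a lower fold change as deposited in Cyp1a2_CA and 55.0% did in Gls2_CA. GAB18 and GAB235 were the extremes of Gls2_CA, 27.5-fold apart, and without GAB18 the Gls2_CA value as deposited was -1.86 (edgeR adjusted p = 0.0204).

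Slc37a4 (chr9:44396852-44402968, 13 transcripts), the transporter that carries glucose-6-phosphate to G6pc in the endoplasmic reticulum, was at 49.9, 67.4 and 110 CPM in the lowest, median and highest Cyp1a2_CA animal. Gls2_CA animals had 71.1, 88.6, 42.0, 83.1 and 76.2 CPM, and WT livers ranged from 98.7 to 151 CPM with a median of 141. In Cyp1a2_CA 7 of 9 animals lay below the lowest WT liver, and in Gls2_CA all 5 animals did, as for 26.2% of tested genes. By single library GAB294-S, at 100.26 CPM, was just above the lowest WT library at 99.97 CPM. The fall was 0.96 ± 0.18 as deposited in Cyp1a2_CA, 1.95-fold lower (edgeR adjusted p = 0.00015), but -3.07 ± 0.18 with the offset, 8.38-fold lower (edgeR adjusted p = 7.12e-09). In Gls2_CA it was -0.99 ± 0.18 as deposited (edgeR adjusted p = 0.000363) and -3.00 ± 0.19 with the offset (edgeR adjusted p = 1.06e-06). None of the 167 genes with 13 transcripts tested in Cyp1a2_CA, nor of the 157 in Gls2_CA, had a lower fold change. The direction turned on the hepatocyte scale, which has no offset and so keeps the difference that goes with transcript number. The values there were 0.44 in Cyp1a2_CA (edgeR adjusted p = 0.122) and 0.96 in Gls2_CA (edgeR adjusted p = 0.00967). The size of the offset rests on RefSeq's transcript number, which counts 11 curated and 2 predicted transcripts for Slc37a4, and the authors' annotation may hold another number.

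Pcx (chr19:4510472-4621752, 3 transcripts), the mitochondrial pyruvate carboxylase, did not pass the test in either genotype. Cyp1a2_CA animals ranged from 129 to 654 CPM around a median of 255, Gls2_CA animals had 419, 281, 73.0, 308 and 368 CPM, and WT livers lay between 333 and 426 CPM with a median of 408. Tumour animals lay on both sides of WT in Cyp1a2_CA, with 6 of 9 below every WT liver and 2 of 9 above every one. The log2 fold change was -0.40 ± 0.30 in Cyp1a2_CA (edgeR adjusted p = 0.237) and -0.54 ± 0.32 in Gls2_CA (edgeR adjusted p = 0.149), and -0.43 and -0.53 with the offset (edgeR adjusted p = 0.257 and 0.212). The 95% intervals as deposited, -0.98 to 0.18 and -1.17 to 0.09, do not show that Pcx was equal to WT. They are a normal approximation from the SE and are narrower than the test itself allows. On the hepatocyte scale the sign turned, with 1.01 in Cyp1a2_CA and 1.16 in Gls2_CA (edgeR adjusted p = 0.0145 and 0.000226). The call turned on 1 animal in each genotype: Pcx passed at -0.61 without CAB228 in Cyp1a2_CA (edgeR adjusted p = 0.0433) and at -0.29 without GAB235 in Gls2_CA (edgeR adjusted p = 0.0453).

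Tat (chr8:109990437-109999803, 2 transcripts), the glucocorticoid-induced tyrosine aminotransferase, was at 88.1, 171 and 802 CPM in the lowest, median and highest Cyp1a2_CA animal. Gls2_CA animals had 176, 70.9, 134, 501 and 170 CPM, and WT livers 737 at the lowest, 1357 at the median and 1827 at the highest. CAB145, at 802 CPM, was the 1 tumour animal above the lowest WT liver. Among single libraries GAB242-L, at 809 CPM, was also above the lowest WT library at 746 CPM, although GAB242 summed was at 501 CPM. Tat fell by 2.57 ± 0.46 on the log2 scale in Cyp1a2_CA, 5.95-fold lower (edgeR adjusted p = 0.000118), and by 2.70 ± 0.47 in Gls2_CA, 6.51-fold lower (edgeR adjusted p = 0.000251). The falls with the offset were 4.12-fold in Cyp1a2_CA, at -2.04 ± 0.45 (edgeR adjusted p = 0.0023), and 4.41-fold in Gls2_CA, at -2.14 ± 0.45 (edgeR adjusted p = 0.00325). On the hepatocyte scale the values, -0.93 and -0.72, did not pass (edgeR adjusted p = 0.157 and 0.183).

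Gpt (chr15:76695716-76699686, 1 transcript), the cytosolic alanine aminotransferase that turns alanine into pyruvate, was at 18.6, 36.4 and 123 CPM in the lowest, median and highest Cyp1a2_CA animal, and at 48.9, 36.5, 17.4, 63.8 and 61.4 CPM in Gls2_CA. WT livers ranged from 144.6 to 200 CPM with a median of 176, above every tumour. That held for 20.9% of tested genes in Cyp1a2_CA and 26.2% in Gls2_CA. Gpt fell by 2.01 ± 0.35 on the log2 scale in Cyp1a2_CA (edgeR adjusted p = 0.000106) and was 4.0-fold lower in Gls2_CA (edgeR adjusted p = 4.46e-05) as deposited. With the offset its values of -0.55 ± 0.35 and -0.48 ± 0.26 did not pass (edgeR adjusted p = 0.226 and 0.163), and among genes with 1 transcript alone they were -0.57 and -0.55 (edgeR adjusted p = 0.206 and 0.105). The hepatocyte scale gave -0.44 and -0.21, which did not pass either (edgeR adjusted p = 0.417 and 0.433).

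Ppargc1a (chr5:51454250-51567726, 13 transcripts) encodes PGC-1alpha, a coactivator induced by fasting that raises transcription of Pck1 and G6pc. It was the 1 member that was higher in tumours as deposited, at 22.4, 55.6 and 152 CPM in the lowest, median and highest Cyp1a2_CA animal and 93.6, 124, 111, 124 and 91.0 CPM in Gls2_CA. WT livers lay between 11.2 and 15.6 CPM, with a median of 14.8, below every tumour, which was true of 23.4% of tested genes in Cyp1a2_CA and 29.8% in Gls2_CA. The log2 fold change as deposited was 2.34 ± 0.39 in Cyp1a2_CA, 5.05-fold higher (edgeR adjusted p = 6.12e-05), and 2.86 ± 0.14 in Gls2_CA, 7.26-fold higher (edgeR adjusted p = 1.96e-08). With the offset it was 0.23 ± 0.36 in Cyp1a2_CA, which did not pass (edgeR adjusted p = 0.635), and 0.85 ± 0.13 in Gls2_CA, which did (edgeR adjusted p = 0.000362). Genes with 13 transcripts had a median of 2.24 in Cyp1a2_CA and 2.12 in Gls2_CA, and 56.9% and 76.4% of them lay below Ppargc1a. Of its 13 RefSeq transcripts 3 are curated and 10 predicted, and genes with 3 transcripts had medians of 0.17 and 0.10. The size of its offset therefore depends on which transcripts the authors' annotation held, which is not known. On the hepatocyte scale, which has no offset, Ppargc1a was at 3.61 and 5.08 (edgeR adjusted p = 7.69e-08 and 3.52e-06), and these values keep the difference that goes with transcript number.

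**Figure D3:**
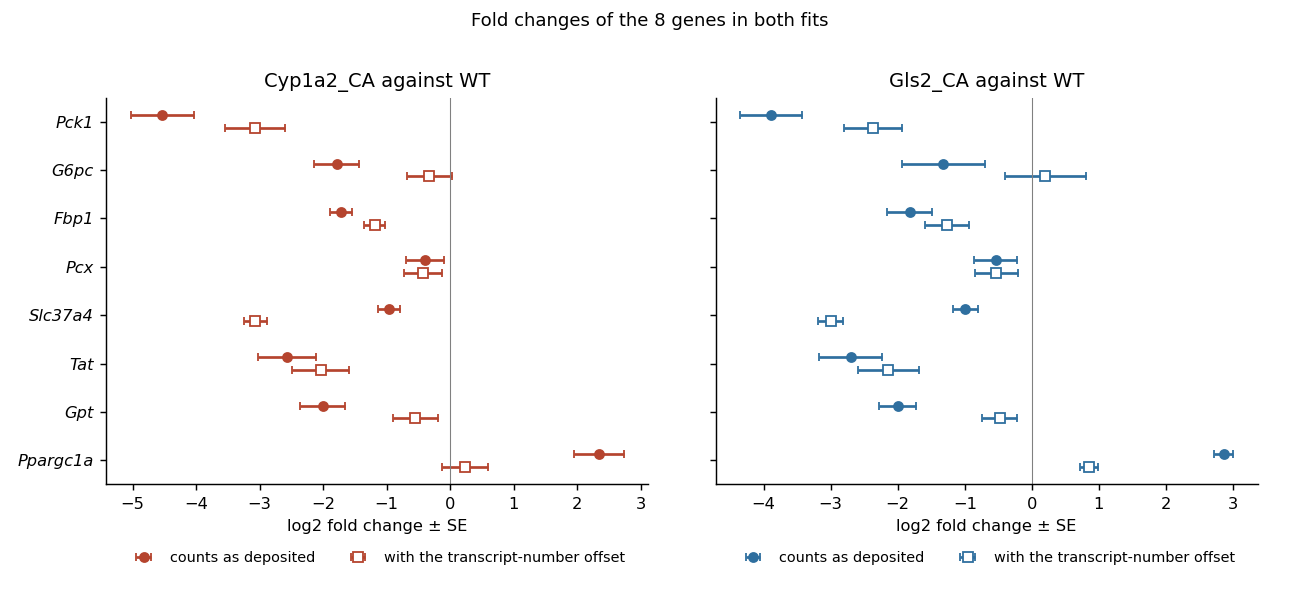
Log2 fold change ± SE of the 8 genes (rows) over WT in Cyp1a2_CA (left, 9 animals) and Gls2_CA (right, 5 animals), with filled circles for counts as deposited and open squares for the transcript-number offset; 6 WT animals entered each. Pck1, Fbp1, Tat and Slc37a4 are below 0 in both fits. G6pc, Gpt and Ppargc1a move towards 0 with the offset, and Slc37a4 moves away from it. On the hepatocyte scale, which has no offset and is not drawn, Slc37a4 and Pcx turn above 0.

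Ratios between members with 1 transcript, taken within each animal, do not depend on library scaling, and 9 such comparisons were made. The log2 ratio of Pck1 to G6pc averaged 0.04 ± 1.08 in Cyp1a2_CA, 0.85 ± 1.64 in Gls2_CA and 3.03 ± 0.92 in WT (SD, n = 9, 5 and 6 animals). The difference of Cyp1a2_CA from WT was -3.00 (two-sided exact permutation test, p = 0.0004, the smallest these groups can give, adjusted p = 0.0018), and no Cyp1a2_CA animal overlapped with WT. Gls2_CA differed from WT by -2.19 (exact permutation p = 0.0216, adjusted p = 0.0486), with GAB235 at 3.25 inside the WT range of 2.25 to 4.62. For Pck1 over Gpt the differences from WT were -2.57 in Cyp1a2_CA (exact permutation p = 0.0004, adjusted p = 0.0018) and -1.90 in Gls2_CA (exact permutation p = 0.00433, the smallest possible, adjusted p = 0.013), again without overlap. G6pc over Gpt was 0.47 ± 0.87 in Cyp1a2_CA, 0.34 ± 1.19 in Gls2_CA and 0.05 ± 0.63 in WT, and did not differ beyond the spread (exact permutation adjusted p = 0.474 and 0.696). Between Cyp1a2_CA and Gls2_CA the ratios differed by -0.81, -0.68 and 0.13 for Pck1 over G6pc, Pck1 over Gpt and G6pc over Gpt (exact permutation adjusted p = 0.474, 0.491 and 0.803).

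**Figure D4:**
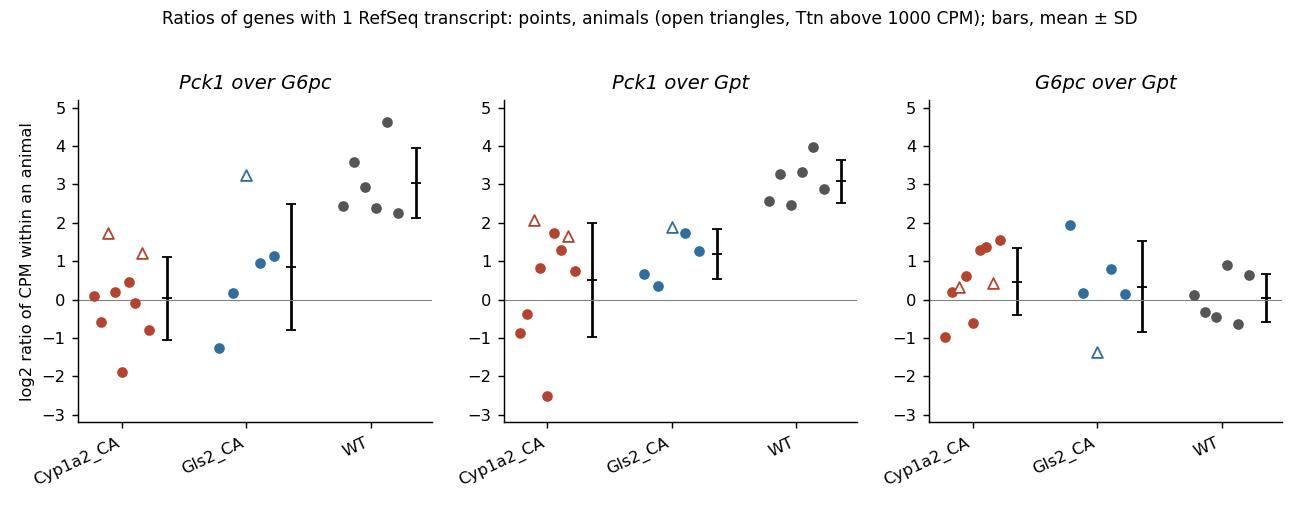
Log2 ratio of CPM between members with 1 RefSeq transcript (vertical axis) in each animal of Cyp1a2_CA, Gls2_CA and WT, with mean ± SD beside the points and open triangles for tumours with Ttn above 1000 CPM. Pck1 over G6pc is -1.90 to 1.74 in Cyp1a2_CA, below the WT range of 2.25 to 4.62, and G6pc over Gpt overlaps between all groups.

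Between the tumour genotypes, whose fold changes were nearly unrelated to transcript number, none of the 8 genes passed the test. No gene of the 17129 tested passed in Cyp1a2_CA against Gls2_CA (0.0% by edgeR), 553 (3.23%) had an unadjusted p under 0.05, and DESeq2 called 20 genes (0.117%), none of them a member. Pck1 averaged 69.6 ± 42.1 CPM in Cyp1a2_CA and 110 ± 68.7 CPM in Gls2_CA (SD, n = 9 and 5 animals). The log2 fold changes of Cyp1a2_CA over Gls2_CA were -0.66 for Pck1 (95% interval -1.70 to 0.39), -0.48 for G6pc (-1.57 to 0.61) and -0.53 for Ppargc1a (-1.29 to 0.24). The other 5 genes lay between -0.02 and 0.13, with Slc37a4 the most narrowly bounded at 0.02 (-0.42 to 0.45). These intervals are a normal approximation from the SE and are narrower than the test itself allows. They hold differences of more than 2-fold for Pck1, G6pc and Ppargc1a, and so does that of Tat, whose upper bound was 1.24, so the data do not show that the genotypes were alike. Without the Ttn-high libraries Pck1 was at -0.86 and Ppargc1a at -0.39 (edgeR adjusted p = 0.827 and 0.89).

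Spread among tumours was wide for some members and narrow for others. Within Cyp1a2_CA the highest animal had 17.4 times the Pck1 level of the lowest, 9.11 times the Tat level and 2.20 times the Slc37a4 level. Coefficients of variation in Cyp1a2_CA ran from 27.9% for Fbp1 to 98.8% for Tat, while in WT they ran from 5.70% for Fbp1 to 46.7% for G6pc. GAB235, the Ttn-high tumour of Gls2_CA, was the lowest of its group for G6pc, Fbp1, Pcx, Slc37a4 and Gpt, but not for Pck1 at 64.6 CPM, Tat at 134 CPM or Ppargc1a at 111 CPM. Its Ttn level was 29580 CPM, and the part of that state in these values was not tested. CAB239, with the lowest Pck1 at 7.79 CPM, was not among the Ttn-high tumours and had Fbp1 at 260 CPM, above the Cyp1a2_CA median for Fbp1.

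Tumours of 1 animal also differed in some members. Pck1 ranged from 41.1 to 209 CPM, 5.08-fold, over the 3 libraries of GAB294, but only from 202 to 211 CPM over the 3 of GAB242 and from 62.9 to 107 CPM over the pair from CAB28. In GAB242 it was Tat that varied, from 296 to 809 CPM, with G6pc from 57.3 to 148 CPM and Ppargc1a from 75.3 to 178 CPM. GAB294 held G6pc between 62.8 and 74.3 CPM and Pcx between 351 and 378 CPM across the same 3 libraries. These animals entered the tests as summed counts, so each counts once.

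Across the 11 tumour animals with Ttn at or under 1000 CPM (7 Cyp1a2_CA and 4 Gls2_CA), 22 of the 28 pairs of members had a positive Pearson r of log2 CPM, and none of the 28 passed after adjustment. The strongest pair was Pck1 with G6pc, at r = 0.78 (permutation p = 0.00457, adjusted p = 0.0979) and rho = 0.80 (permutation p = 0.00485, adjusted p = 0.136). Without the 2 animals farthest from the median of Pck1, r was 0.52, so the relation rests in part on those animals. Tat with Gpt had r = 0.77 (permutation p = 0.00718, adjusted p = 0.0979) and rho = 0.68 (permutation p = 0.0244, adjusted p = 0.199), with r = 0.48 without the 2 farthest. Pcx with Ppargc1a ran the other way at r = -0.73 (permutation p = 0.0105, adjusted p = 0.0979) and rho = -0.70 (permutation p = 0.0202, adjusted p = 0.199), with r = -0.77 without the 2 farthest. Ppargc1a and Pck1 were almost unrelated at r = 0.09 (permutation p = 0.798, adjusted p = 0.915) and rho = 0.22 (permutation p = 0.521, adjusted p = 0.729), with r = 0.43 without the 2 farthest. All pairs share library depth and scaling.

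Among 10483 genes with a mean of at least 5 CPM, those whose log2 CPM was most like a member's over the same 11 animals are given as a description. Tat was most like Got1 at r = 0.93, followed by Nckap5 at 0.91. Pck1 was most like Slc38a1 at r = 0.87, and G6pc most like Ddx59 and Sqle at 0.81 each. Fbp1 was most like Slc27a4 at 0.91 and Akr1d1 at 0.88, Gpt most like Nr6a1 and Hgd at 0.94, and Pcx most like Actr1b at 0.92. Ppargc1a was most like Slc33a1 at 0.95, and Slc37a4 most like Dhx16 at 0.91. With 11 animals and this many genes, values of this size were found for every member.

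The single Cyp1a2_C tumour had 7 of the 8 genes lower than any other animal of the study. Its levels were 2.13 CPM for Pck1 (exact Clopper-Pearson 95% interval 1.75 to 2.56, counting error only), 0.406 for G6pc (0.251 to 0.621) and 3.07 for Fbp1 (2.62 to 3.59). Pcx was at 12.5 CPM, Slc37a4 at 5.61, Tat at 2.22 and Gpt at 1.26. Ppargc1a was instead at 118 CPM (115 to 121), within the range of the other tumours. Its 11 hepatocyte identity genes summed to 899 CPM and its Ttn was 8522 CPM, and with 1 library no test was possible.

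WT levels per kilobase of exon place the members in order. Tat averaged 536 ± 168 CPM per kilobase, Pck1 447 ± 168 and Fbp1 388 ± 22.1 (SD, n = 6 animals). Pcx was at 83.0 ± 7.21, G6pc at 79.6 ± 37.2, Gpt at 58.2 ± 7.12, Slc37a4 at 47.2 ± 6.74 and Ppargc1a at 2.15 ± 0.25. Neighbours in this order overlapped in their ranges, except Fbp1 with Pcx and Slc37a4 with Ppargc1a. The same order was not taken in tumours, because fold changes against WT went with the number of transcripts.

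Among 5 isozymes of the members 4 were tested, and as deposited 2 fell and 1 rose in each genotype. Of all genes, 32.7% were lower and 38.3% higher in Cyp1a2_CA, and 34.0% and 39.2% in Gls2_CA. After the offset no isozyme was called in Cyp1a2_CA and 1 rose in Gls2_CA. The shares of all genes were then 16.9% lower and 22.4% higher, and 17.4% and 22.9%. Pck2, the mitochondrial carboxykinase, averaged 6.57 ± 4.03 CPM in Cyp1a2_CA and 6.78 ± 1.97 CPM in Gls2_CA, against 2.66 ± 0.59 CPM in WT (SD, n = 9, 5 and 6), with log2 fold changes of 1.23 and 1.27 (edgeR adjusted p = 0.00746 and 0.000395). With the offset they were 0.80 and 0.86 (edgeR adjusted p = 0.0936 and 0.0115). Gpt2, the mitochondrial alanine aminotransferase, was at 179 CPM in both tumour groups against 385 CPM in WT, and fell as deposited, at -1.17 in Cyp1a2_CA and -1.20 in Gls2_CA (edgeR adjusted p = 0.00469 and 0.00312), with offset values of -0.64 and -0.63 that did not pass (edgeR adjusted p = 0.13 and 0.103). G6pc3, the ubiquitous glucose-6-phosphatase, fell as deposited by 1.23 in Cyp1a2_CA and by 0.83 in Gls2_CA (edgeR adjusted p = 0.00092 and 0.0132), but with the offset was at 0.23 and 0.68 (edgeR adjusted p = 0.542 and 0.0557).

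The counts of neighbouring lists stand beside the shares of all genes called lower and higher, which were 32.7% and 38.3% in Cyp1a2_CA and 34.0% and 39.2% in Gls2_CA as deposited, and 16.9% and 22.4%, and 17.4% and 22.9%, with the offset. Of 12 genes of amino acid breakdown beside Tat, 11 fell in Cyp1a2_CA and 10 in Gls2_CA as deposited, and 11 and 9 with the offset, with none higher. The median log2 fold changes were -2.46 in Cyp1a2_CA and -2.61 in Gls2_CA as deposited, and -1.73 and -1.60 with the offset. Cps1, which fixes ammonia for the urea cycle, averaged 460 ± 190 CPM in Cyp1a2_CA and 423 ± 287 CPM in Gls2_CA, against 4595 ± 665 CPM in WT, with log2 fold changes of -3.39 and -3.53 as deposited and -2.86 and -2.97 with the offset (edgeR adjusted p = 8.94e-07 and 0.000514 with the offset). Arg1, which releases urea, had -4.20 and -4.75 as deposited and -2.73 and -3.24 with the offset (edgeR adjusted p = 6.29e-05 and 0.000559 with the offset). Of the reversible steps shared with glycolysis, with 13 genes tested in Cyp1a2_CA and 12 in Gls2_CA, 8 fell and 2 rose in each genotype as deposited, but only 3 fell and 1 rose with the offset.

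Genes that bring substrate in, 22 in the table, had 13 lower and 3 higher in Cyp1a2_CA and 13 lower and 5 higher in Gls2_CA as deposited. With the offset 8 were lower in each genotype, and 1 was higher in Cyp1a2_CA and 2 in Gls2_CA. Slc38a3, a glutamine transporter, averaged 1077 ± 338 CPM in Cyp1a2_CA and 719 ± 259 CPM in Gls2_CA, against 1553 ± 186 CPM in WT (SD, n = 9, 5 and 6). Slc2a2, the main glucose transporter of hepatocytes, averaged 37.5 ± 19.2 CPM in Cyp1a2_CA and 55.6 ± 29.0 CPM in Gls2_CA, against 319 ± 31.7 CPM in WT. Slc38a3 changed by -0.60 and -1.20 as deposited and by -1.81 and -2.43 with the offset (edgeR adjusted p = 1.98e-06 and 1.92e-05 with the offset). The values of Slc2a2 were -3.17 and -2.62 as deposited and -1.71 and -1.10 with the offset (edgeR adjusted p = 0.000593 and 0.0198 with the offset). Among 29 hormonal and transcriptional regulators, 16 fell and 5 rose in Cyp1a2_CA and 12 fell and 7 rose in Gls2_CA with the offset, where as deposited 10 fell and 10 rose in Cyp1a2_CA and 8 fell and 10 rose in Gls2_CA, near the shares of all genes. Foxo1, the insulin-restrained activator of Pck1 and G6pc, was at -0.68 in Cyp1a2_CA (edgeR adjusted p = 0.000578) and -0.34 in Gls2_CA (edgeR adjusted p = 0.179) with the offset, and -2.14 and -1.85 without. Creb1, the factor that binds cAMP response elements, rose by 2.33 in both genotypes as deposited, and its offset values of 0.27 and 0.26 did not pass (edgeR adjusted p = 0.146 and 0.293). Klf15, a fasting-induced factor, was at -1.22 and -1.27 with the offset (edgeR adjusted p = 0.000133 and 0.000677), and at 0.32 and 0.23 as deposited.

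Of 15 glycolytic enzymes that oppose the pathway, 6 rose and 1 fell in Cyp1a2_CA and 9 rose and none fell in Gls2_CA as deposited, beside 38.3% and 39.2% of all genes higher and 32.7% and 34.0% lower. After the offset 2 rose and 4 fell in Cyp1a2_CA, and 3 rose and 3 fell in Gls2_CA. Hk1, the hexokinase of most tissues other than liver, averaged 55.5 ± 76.5 CPM in Cyp1a2_CA and 75.5 ± 133 CPM in Gls2_CA, against 4.31 ± 0.67 CPM in WT, with log2 fold changes of 3.62 and 4.11 as deposited and 2.10 and 2.61 with the offset (edgeR adjusted p = 0.0351 and 0.0318 with the offset). The SD of Hk1 exceeded its mean in both tumour groups, so these means do not describe every tumour. Pfkfb1 and Pfkfb3, of the same list, fell with the offset. Their values were -1.13 and -1.27 in Cyp1a2_CA (edgeR adjusted p = 0.00696 and 0.00728) and -1.29 and -0.96 in Gls2_CA (edgeR adjusted p = 0.00697 and 0.024). Glycogen metabolism, with 16 genes, had 8 lower and 5 higher in Cyp1a2_CA and 7 lower and 4 higher in Gls2_CA as deposited. With the offset it had 4 lower and 5 higher in Cyp1a2_CA and 3 lower and 4 higher in Gls2_CA, near the shares of all genes. Gys2, the liver glycogen synthase, was at -1.53 as deposited and -1.56 with the offset in Cyp1a2_CA (edgeR adjusted p = 1.77e-05 and 6.63e-05). Periportal hepatocyte markers, from the zone where gluconeogenesis is strongest, had 10 of 10 lower in each genotype as deposited and 9 of 10 with the offset, with none higher. Their summed level was 5179 to 31452 CPM in Cyp1a2_CA and 2091 to 10400 CPM in Gls2_CA, against 52256 to 73341 CPM in WT. Most of that sum was albumin (Alb), which is also on the hepatocyte identity list and averaged 11736 ± 7915 CPM in Cyp1a2_CA and 6676 ± 3005 CPM in Gls2_CA, against 58566 ± 9129 CPM in WT, so the sum is no measure of zone. Pericentral markers had 4 higher and 3 lower of 10 in each genotype as deposited, and with the offset 5 higher and 1 lower in Cyp1a2_CA and 6 higher and none lower in Gls2_CA. Their summed level was 2233 to 10269 CPM in Cyp1a2_CA and 3598 to 10660 CPM in Gls2_CA, against 8942 to 10190 CPM in WT. Periportal and pericentral sums are on counts as deposited and keep the difference between tumour and WT columns. The part of these marker values in the results for the 8 genes was not tested.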

How the data were processed

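RNA was sequenced from liver tumours and WT livers. The authors deposited whole-number counts per gene symbol in 1 table for all 26 libraries, with no normalization and 0 columns of other samples; the build was mm10, per the submitters' processing notes. Which aligner, counter, strand setting and annotation made them is not given in the sources used here, and reads of overlapping or near-identical genes may be split. Per the labels' protocols, 100 ng of DNase-treated RNA entered a Nugen Ovation library.

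Counts of libraries sharing an animal number in their titles were summed, filtered (filterByExpr), TMM-scaled and tested per pair of groups with edgeR 4.0.16 (quasi-likelihood, robust, Benjamini-Hochberg over all genes tested, threshold 0.05) in R 4.3.3. DESeq2 1.42.0 and limma 3.58.1 (voom with quality weights) were alternatives. CPM are TMM-scaled. Permutation tests used scipy 1.17.1, exact for ratios and with 100000 resamples for correlations. The labels do not say that animals are littermates or separate cohorts, so p-values reflect only the spread among these animals. No pair of libraries agreed within sampling noise. The edgeR step was tested on simulated counts.

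Transcript numbers and promoters came from RefSeq (GRCm38.p6), with 89.8% of symbols matched, and coordinates and exon lengths from GENCODE vM21 (GRCm38). RefSeq may differ from the authors' annotation. Named genes were all 8 members, up to 4 genes per list with the smallest p in a comparison, and the 5 genes most like each member. The members and lists were chosen with earlier results of these data known. The 5 alternatives built on transcript number (offset, division, single-transcript genes, ratios, and the offset without Ttn-high libraries) were chosen after seeing the data.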

Additional observations from a re-analysis of the deposited data

Results flagged for a closer look

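In all, 3 of 24 sets of animal values stood out by 1 animal far from its group, where chance gives about 1 in 20. Tat was 802 CPM in CAB145, above the other Cyp1a2_CA animals, and 501 CPM in GAB242, above the other Gls2_CA animals. CAB145 also had Gpt at 123 CPM, the highest of Cyp1a2_CA. The sets share animals and are not independent, and their number was not tested against the chance rate. Ppargc1a was 118 CPM in the single Cyp1a2_C library, which no test used, against 11.2 to 15.6 CPM in WT. That library is among the 20 tumour libraries in which Cebpa, Cebpb, Agxt and Mdh1 had whole multiples. The relation of its counts with transcript number was not tested in it alone.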

How the results depend on the processing

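No paired analysis was possible because replicate numbers were given in accession order and pair no animals across groups. Leaving out each animal in turn gave 7 to 8 of the 8 genes past the threshold in Cyp1a2_CA against WT (6 to 7 lower, 1 to 1 higher, 11497 to 12004 genes in all), 6 to 7 in Gls2_CA against WT (5 to 6 lower, 1 to 1 higher, 10694 to 11879 genes) and 0 to 0 between the tumour genotypes. The transcript-number offset left 6136 genes, 4 members and 0 higher in Cyp1a2_CA against WT, and 5638 genes in Gls2_CA against WT. Without the Ttn-high libraries as well the values were 6195, 4 and 0, and 6984 genes. Dividing tumour counts by transcript number gave 6152, 4 and 0, and 5593 genes. Hepatocyte identity factors left 3 members past the threshold in Cyp1a2_CA against WT (1 lower, 2 higher), and 1 lower and 3 higher in Gls2_CA against WT. They reversed Pcx to 1.01 and Slc37a4 to 0.44 in Cyp1a2_CA, and Pcx to 1.16 and Slc37a4 to 0.96 in Gls2_CA, and the offset reversed G6pc in Gls2_CA, which had not passed, to 0.20. Between the tumour genotypes DESeq2 called 20 genes, every library as a replicate 6, hepatocyte identity factors 1 and limma-voom 10, beside 0. Relative to hepatocyte identity genes 5 pairs of members passed, beside 0. There the same mean was subtracted from every member in each animal, so all pairs share that term and the 5 are not read as relations between members. Upper-quartile factors moved the median of all genes to -0.05 in Cyp1a2_CA and -0.09 in Gls2_CA, and G6pc in Gls2_CA passed with them at -1.55 (edgeR adjusted p = 0.0409) with DESeq2 at -1.33 (adjusted p = 0.0302) and with every library as a replicate at -1.23 (edgeR adjusted p = 0.0305). Pcx passed with an offset for exon length and GC, at -0.96 in Cyp1a2_CA and -1.12 in Gls2_CA (edgeR adjusted p = 0.0087 and 0.00967), and with limma-voom at -0.65 and -0.41 (limma adjusted p = 0.00299 and 0.0306). The cause of these changes was not tested.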
